A study of Mus musculus with 6 samples.

Results

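The MiT/TFE family consists of the transcription factor genes Mitf, Tfeb, Tfe3 and Tfec. They were found by symbol on the gene expression arrays of the study, each as the single-symbol probe set with the highest mean, and make up 4 of the 19938 named genes measured. The family was chosen by the difference of Mitf between knockdown and control arrays, with the results of that comparison known, so the differences of the 4 members are given with their intervals as a description, and nothing is supported by where they fell in the fit over all genes. Mouse N2A neuroblastoma cells, grown in DMEM with fetal bovine serum, were transiently transfected with 1.5 µg of an shRNA expression vector, and total RNA was taken 3 days later. The 3 control cultures received a non-targeting vector and the 3 knockdown cultures a Pax6 knockdown construct. A single Pax6 hairpin was used, so effects of that hairpin on other transcripts cannot be told apart from loss of Pax6. Any untransfected cells in a well also contributed to the RNA.

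MiT/TFE proteins carry a basic helix-loop-helix leucine zipper with which they bind DNA as homodimers or as heterodimers with each other. They recognise the E-box CACGTG, its extended form in lysosomal gene promoters (the CLEAR element, with the core TCACGTGA) and, in pigment genes, the M-box with the core TCATGTG. MITF is best known as the master factor of melanocytes, also acting in retinal pigment epithelium, osteoclasts and mast cells, whereas TFEB and TFE3 are broadly made and drive lysosomal and autophagy genes when they enter the nucleus. That entry is held back by mTORC1 phosphorylation at the lysosome and 14-3-3 binding, steps that an RNA measurement does not see. PAX6 is known to act with MITF in the developing retinal pigment epithelium. N2A cells are of neural crest tumour origin, not pigmented.

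Pax6 itself, the target of the hairpin and a paired-box factor of eye and brain, had log2 values of 8.79, 8.82 and 8.81 after the non-targeting vector and of 8.48, 8.30 and 8.50 after knockdown. No knockdown array reached a control array. The difference was -0.38 (SE 0.071, limma adjusted p = 0.0382), and linear signal fell by 23.2%. This is RNA signal on the array and does not give the change of PAX6 protein. Values are RMA summaries on the log2 scale as deposited, and a gene was tested where 3 or more of the 6 arrays read above their own median, a low-value filter that 3 of the 4 family members passed. Of 11424 genes tested with limma, 6.67% passed a false discovery rate (FDR) of 10% in either direction, 2.79% higher and 3.88% lower in the knockdown, and the groups did not overlap in 25.6%. The median difference of all tested genes was 0.02. All 16 measured noradrenergic neuroblastoma markers lay above the low-value filter, as the cell line label would have it, whereas 11 of 13 pigment cell markers, all 9 mast cell markers and all 7 retinal pigment epithelium markers lay below it. Of the noradrenergic markers 5 fell (31.2%, beside 3.88% of all tested genes), namely Isl1, Dbh, Chga, Chgb and Chrna3. The other 11 were not called, 5 of the 16 differences were positive, and the median was -0.09. With no low-value filter 3 fell. The summed linear signal of the 16, in which bright genes weigh most, went from 66709 to 68444 in controls to 58838 to 59507 in knockdown arrays. The part of that shift in the results that follow was not tested.

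Mitf is transcribed from several starts that give isoforms with different first exons. RefSeq (GRCm38.p6) lists 3 of them in the promoter table used here, all on the plus strand of chromosome 6. The 200 bases before each are shown, because the probe set values do not say which start was in use. Capitals mark TGACGTCA, the cAMP response element (CRE), a search added after the sequences had been seen.
Mitf start 1, chr6:97806858-97807057: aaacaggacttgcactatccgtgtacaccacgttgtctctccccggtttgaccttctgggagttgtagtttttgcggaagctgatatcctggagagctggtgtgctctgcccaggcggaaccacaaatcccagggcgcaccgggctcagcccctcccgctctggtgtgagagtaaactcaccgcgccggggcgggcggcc
Mitf start 2, chr6:97929617-97929816: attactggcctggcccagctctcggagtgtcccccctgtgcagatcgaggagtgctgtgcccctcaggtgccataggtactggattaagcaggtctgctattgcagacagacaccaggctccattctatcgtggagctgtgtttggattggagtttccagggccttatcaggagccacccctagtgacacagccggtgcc
Mitf start 3, chr6:97991583-97991782: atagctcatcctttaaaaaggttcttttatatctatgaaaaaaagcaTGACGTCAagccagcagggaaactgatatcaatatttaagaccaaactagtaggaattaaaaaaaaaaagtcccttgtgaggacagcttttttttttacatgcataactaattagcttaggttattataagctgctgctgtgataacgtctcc

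The most downstream of these starts is the one known to be used in melanocytes, and its window alone held the CRE, at position -153 (the start base is +1). The CRE stood in 1.79% of all 32851 promoters of the table, which are windows of the same length. None of the 9 promoter windows listed for the 4 members held the E-box, the CLEAR core or the M-box core, which stood in 7.15%, 0.974% and 3.77% of all promoters on either strand. Each CLEAR core contains an E-box, so those shares overlap. No match says only that these letters were not in the window.

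Mitf read 8.64, 8.55 and 8.72 in control replicates 1 to 3 and 8.19, 8.19 and 8.18 in the knockdown replicates. The groups did not overlap, and the knockdown arrays were nearly identical to each other. The mean went from 8.63 ± 0.086 to 8.19 ± 0.0055 (SD, n = 3 each), a log2 difference of -0.45 (SE 0.064, 95% interval -0.59 to -0.30). Linear signal fell by 26.6%. Mitf was among the 443 genes past 10% FDR in the lower direction, at position 122 by size of fall. That is the value on which the family was chosen, and nothing is read from it against the background of 3.88%. In bulk RNA, fewer cells that express Mitf and less Mitf RNA per cell cannot be told apart.

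A second probe set that names Mitf behaved differently. It read 4.12, 5.34 and 4.45 in controls and 4.05, 6.45 and 4.31 in knockdown arrays. Replicate 2 was the highest in both groups, the groups overlapped, and the difference of 0.30 between means of 4.64 ± 0.63 and 4.94 ± 1.32 (SD, n = 3 each) was smaller than either spread. All its values lay below the array-wide median of 7.49 to 7.59. Where in the gene either probe set lies was not determined here. Averaged with equal weight, the pair gave a difference of -0.07 and did not reach the low-value filter.

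**Figure D1:**
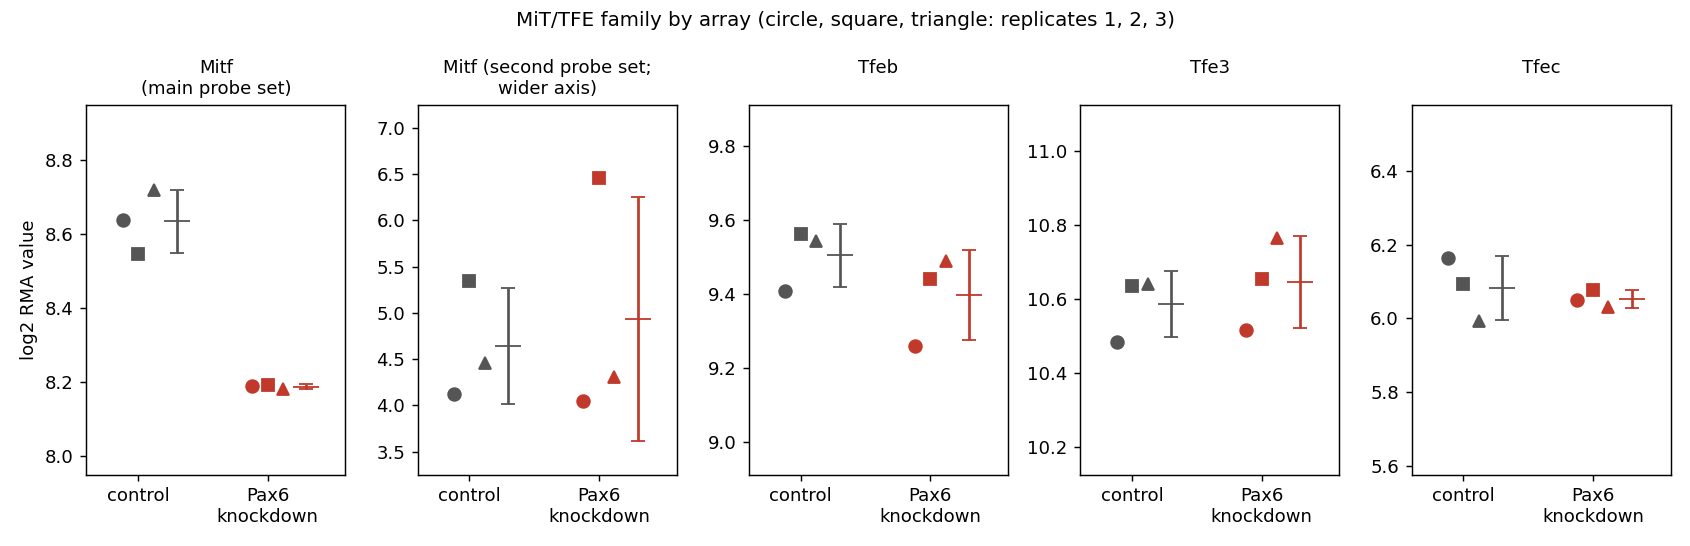
Log2 RMA value of each MiT/TFE probe set on the 6 arrays, with circles, squares and triangles for replicates 1, 2 and 3 and bars for the mean ± SD (n = 3). The main Mitf probe set is the only one of the 5 panels in which the groups do not overlap; the panel of the second Mitf probe set has a wider axis than the others.

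Tfeb, which drives lysosome formation, read 9.41, 9.56 and 9.54 in controls and 9.26, 9.44 and 9.49 in knockdown arrays. The groups overlapped, although each knockdown array lay below the control with its replicate number, by 0.15, 0.12 and 0.05. The difference was -0.11 (SE 0.081, 95% interval -0.29 to 0.08), which leaves room for a small fall as well as none. Tfe3, a close relative with many of the same targets, read 10.49, 10.64 and 10.64 against 10.52, 10.65 and 10.77. Its groups overlapped too, with a difference of 0.06 (SE 0.082, 95% interval -0.13 to 0.25). Each Tfe3 knockdown array lay above the control with its replicate number, by 0.03, 0.02 and 0.13. What the replicate numbers share is not given by the labels. Whether their changes differ from that of Mitf was not tested.

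Tfec, the member known mainly from macrophages and pigment epithelium, read 6.16, 6.09 and 5.99 in controls and 6.05, 6.08 and 6.03 in knockdown arrays. It failed the low-value filter and was not among the tested genes. The difference was -0.03 with a 95% interval of -0.19 to 0.13 from the fit without that filter. At this level the array cannot separate a low transcript from background.

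The family could not be ranked by transcript abundance, because probe sets differ in affinity. Each signal was therefore placed among the 19938 genes of the same array and beside 19 reference genes of liver, muscle, pancreas, testis and other tissues that N2A cells should not express. The reference genes had a median of 6.78 and a range of 4.74 to 8.56. Tfe3 stood at percentiles 80.5 to 84.5 and Tfeb at 62.6 to 68.4, both with a mean above all 19 reference genes. Mitf stood at 55.3 to 56.7 in controls and 50.2 to 51.6 in knockdown arrays, with a mean above 18 of the 19. Tfec, at 14.7 to 18.1, lay above 2 of them. Since 5 reference genes passed the low-value filter, passing it is not proof of expression. The 2 of these with the lowest p, the muscle gene Acta1 and the apolipoprotein gene Apoa2, differed by -0.12 and -0.07 (adjusted p = 0.531 and 0.755).

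**Figure D2:**
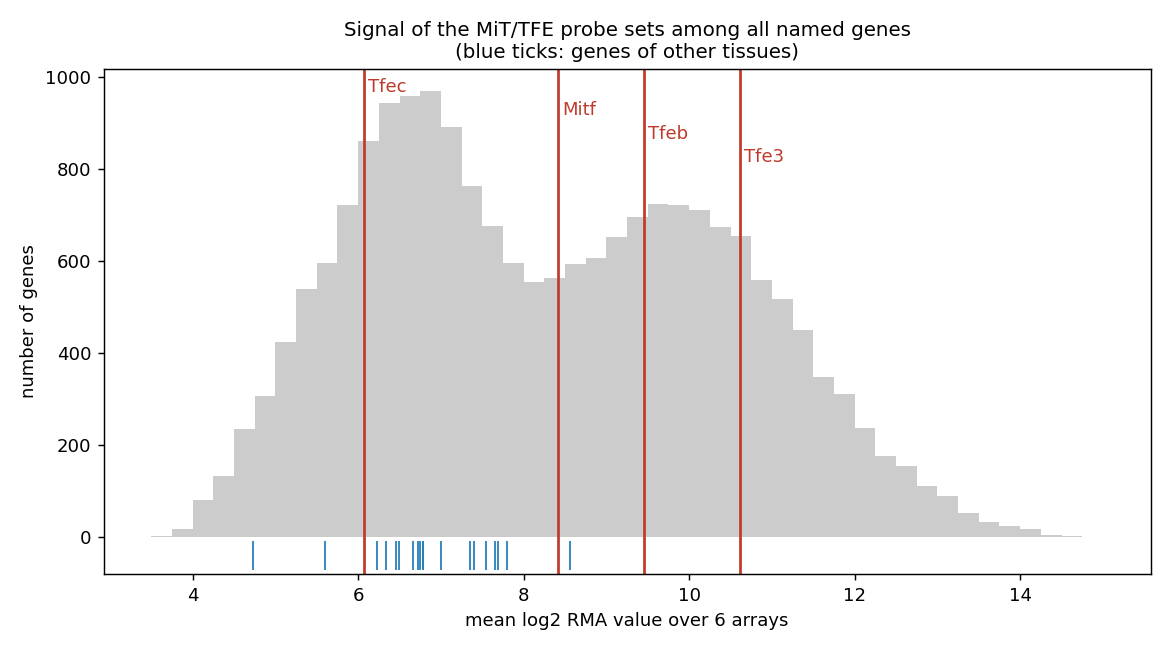
Number of named genes by mean log2 RMA value over the 6 arrays, with red lines for the 4 family members and blue ticks for the 19 genes of other tissues. Tfe3 and Tfeb lie above all blue ticks, Mitf near the upper end of them and Tfec among them.

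The genes whose profile over the 6 arrays was nearest to that of Mitf, by root mean square distance after centring each gene on its own mean, were Ephb3 (0.0473), Rbpjl (0.0475), Slit3 (0.0567), Chgb (0.0585) and Nyap2 (0.0606), against a median of 0.253 over all tested genes. Ephb3 encodes an ephrin receptor, Slit3 an axon guidance ligand and Chgb a secretory granule protein. Their differences ran from -0.36 (Nyap2) to -0.48 (Chgb), close to the fall of Mitf by the construction of the measure. Tfeb stood at a distance of 0.199, with 18.5% of tested genes nearer to Mitf, and Tfe3 at 0.273, with 63.3% nearer.

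The target and regulator lists that follow were also drawn up with earlier results of these data known. Their shares beside those of all tested genes are therefore a description and no support. Of the known targets of the family, 21 lysosomal hydrolases and activators were on the array and all were tested. At 10% FDR 6 of them fell (28.6%, beside 3.88% of all tested genes) and none rose. The count was 3 with either looser low-value filter (none, or the 25th percentile in place of the median), and 0 without control replicate 2 or without knockdown replicate 3. Their median difference was -0.17 beside 0.02 over all tested genes, and 18 of the 21 differences were negative beside 44.5% of all tested genes. Galns, which desulphates keratan sulphate, read 11.21, 11.20 and 11.05 in controls and 10.72, 10.71 and 10.75 in knockdown arrays. The groups lay far apart, with a difference of -0.43 (SE 0.066, limma adjusted p = 0.0222). Sgsh, the heparan N-sulphatase, read 9.63, 9.64 and 9.61 against 9.31, 9.31 and 9.29. Both groups were tight and the difference was -0.32 (SE 0.054, limma adjusted p = 0.0284).

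Gusb, the lysosomal β-glucuronidase, read 10.85, 10.74 and 10.80 in controls and 10.48, 10.45 and 10.36 in knockdown arrays. All knockdown arrays were lower, with a difference of -0.36 (SE 0.064, limma adjusted p = 0.0324). Ctsd, the main aspartic protease of the lysosome, had one of the brightest signals and read 13.66, 13.59 and 13.53 against 13.38, 13.32 and 13.24. The fall of 0.28 was smaller but without overlap, the difference being -0.28 (SE 0.067, limma adjusted p = 0.0700). The other members past the threshold, Gla (α-galactosidase A, -0.53, adjusted p = 0.0856) and Tpp1 (tripeptidyl peptidase, -0.23, adjusted p = 0.0952), are named after their values were seen. With either looser low-value filter only Galns, Sgsh and Gusb of the hydrolase list passed.

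Of 23 tested lysosomal membrane and acidification genes 3 fell and 1 rose (beside 3.88% and 2.79% of all tested genes), with a median difference of 0.00. Cd63, a tetraspanin of late endosomes and lysosomes, read 12.26, 12.34 and 12.20 in controls and 11.70, 11.98 and 12.03 in knockdown arrays. Knockdown replicate 1 was the lowest, and the difference was -0.36 (SE 0.094, adjusted p = 0.0879). The lysosomal amino acid transporter gene Slc36a1 fell by 0.27 (adjusted p = 0.0651). With either looser low-value filter no gene of this list passed.

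Of 12 tested genes of the proton pump, the V-ATPase, 1 fell, 1 rose and 10 did not pass. Of all tested genes 3.88% fell and 2.79% rose. Atp6v0b, of the membrane sector, went from 12.53, 12.52 and 12.43 to 12.19, 12.24 and 12.25, and Atp6v1a, the catalytic subunit of the outer sector, from 12.11, 12.12 and 12.13 to 12.37, 12.31 and 12.31. Neither gene had overlapping groups. The first differed by -0.26 (adjusted p = 0.0631) and the second by 0.21 (adjusted p = 0.0890), and neither passed with a looser low-value filter (adjusted p = 0.109 to 0.153 and 0.160 to 0.218).

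Among 19 autophagy and trafficking targets 2 rose (10.5%, beside 2.79% of all tested genes) and none fell, with a median of 0.07. Neither passed with a looser low-value filter. Sqstm1, the cargo receptor p62, read 13.26, 13.24 and 13.15 in controls and 13.49, 13.45 and 13.45 in knockdown arrays. That is a difference of 0.25 (SE 0.059, adjusted p = 0.0680) with no overlap. Vps39, part of the HOPS complex that tethers vesicles to lysosomes, rose from 10.45, 10.59 and 10.54 to 10.85, 10.76 and 10.83, a difference of 0.29 (adjusted p = 0.0600). The difference between the hydrolase and autophagy lists was not tested.

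Other targets are tied more closely to MITF. Of 9 tested survival and cell cycle genes 1 fell (11.1%, beside 3.88% of all tested genes), with a median of 0.06. That gene was Bcl2, the anti-apoptotic factor, which read 10.19, 10.18 and 10.18 in controls and 9.90, 9.71 and 9.86 in knockdown arrays. The controls were nearly identical and the difference was -0.36 (SE 0.067, limma adjusted p = 0.0375). Of 13 pigment genes on the array only Rab27a and Mc1r passed the low-value filter, and neither was called. Rab27a, which moves melanosomes and other secretory organelles, differed by 0.22 (adjusted p = 0.473), with knockdown replicate 1 highest at 10.48. Mc1r, the melanocortin receptor, differed by -0.05 (adjusted p = 0.760). Others of the 13, such as Tyr, Tyrp1, Dct and Pmel, did not pass the filter. Their control means were 5.50, 6.29, 5.86 and 7.45 and their knockdown means 5.56, 6.23, 5.90 and 7.43. The means of Pmel thus lay just under the array-wide median of 7.49 to 7.59.

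None of 7 tested feedback and metabolism targets passed, beside 6.67% of all tested genes. The 2 with the lowest p were Fnip2, partner of folliculin (0.15, adjusted p = 0.430), and Hif1a, the hypoxia factor (0.07, adjusted p = 0.563).

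The replicate number was also fitted as a block, beside the main test, because same-numbered arrays deviated together. In that fit 17.9% of all tested genes passed 10% FDR, 8.96% higher and 8.91% lower, and the target counts moved with them. Hydrolases then had 10 lower and 1 higher, membrane and acidification genes 4 lower and 1 higher, autophagy genes 1 lower and 5 higher, and survival genes 2 lower. The 16 noradrenergic markers had 6 lower and 2 higher. Rab27a was called higher in that fit (adjusted p = 0.0488). All 13 target genes called without the block were called with it.

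**Figure D3:**
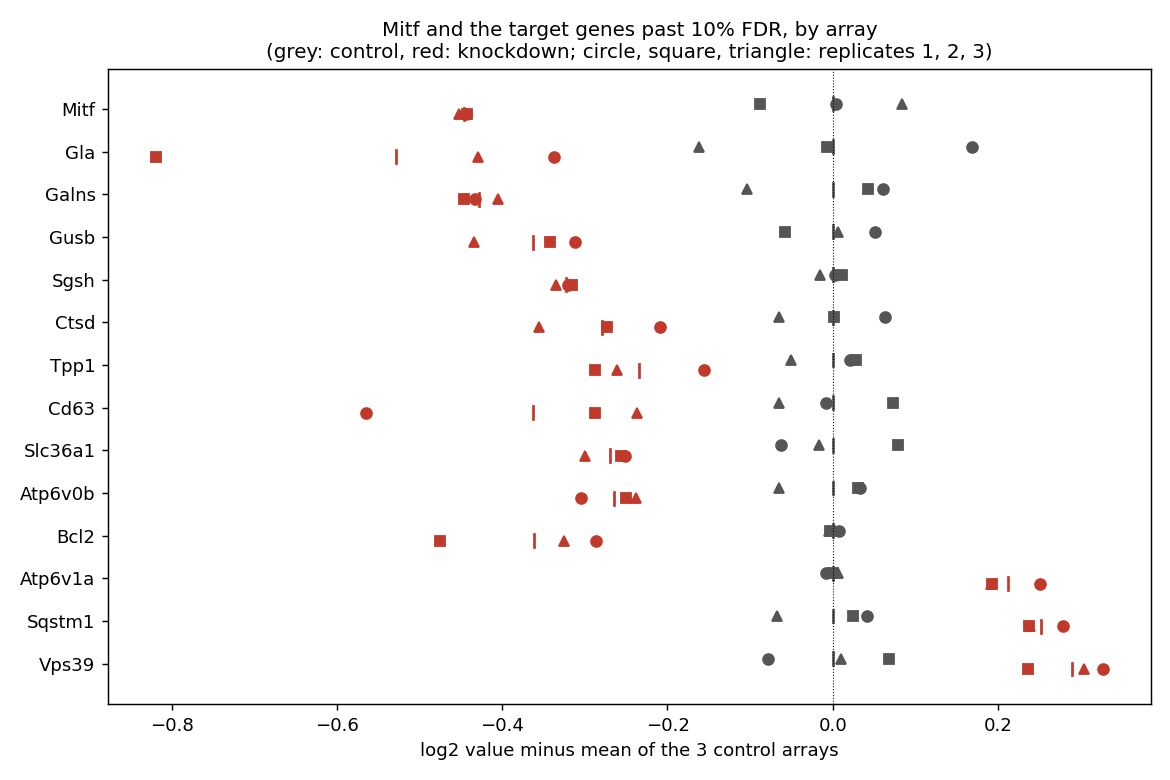
Log2 value on each array minus the mean of the 3 controls, for Mitf and the 13 target genes past 10% FDR, with grey controls, red knockdown arrays, replicate shapes as in the key and vertical bars for group means. In each row the red and grey points do not overlap; 10 target genes lie below their controls and Atp6v1a, Sqstm1 and Vps39 above.

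Short stretches of the promoters of target genes show where the letters that the family is known to recognise stand in these genes. They are given for called genes with an E-box before the start and for 3 pigment genes below the filter, 5′ to 3′ on the gene's strand, in GRCm38.p6 from RefSeq. Capitals mark the E-box or, where its flanks extend it, the CLEAR core. Each stretch was cut around a single match, and other matches of a gene can lie outside it. Outside the stretches, Slc36a1 also had a CLEAR core at -4, Gla another CLEAR core at -195 and Ctsd another E-box at -245.
Ctsd, minus strand, chr7:142387900-142387945: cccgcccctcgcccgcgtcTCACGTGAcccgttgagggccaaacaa
Sgsh, minus strand, chr11:119355514-119355559: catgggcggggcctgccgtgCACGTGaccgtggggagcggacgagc
Gla, minus strand, chrX:134601207-134601252: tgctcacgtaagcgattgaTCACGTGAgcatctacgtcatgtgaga
Slc36a1, plus strand, chr11:55204289-55204334: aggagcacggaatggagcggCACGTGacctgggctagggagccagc
Atp6v0b, minus strand, chr4:117887340-117887385: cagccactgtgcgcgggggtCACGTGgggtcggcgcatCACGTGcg
Atp6v1a, minus strand, chr16:44139365-44139410: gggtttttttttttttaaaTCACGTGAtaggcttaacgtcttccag
In the pigment genes capitals mark the M-box core, which reads CACATGA where it lies on the opposite strand.
Tyrp1, plus strand, chr4:80834146-80834192: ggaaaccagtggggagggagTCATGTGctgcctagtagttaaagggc
Dct, minus strand, chr14:118052452-118052496: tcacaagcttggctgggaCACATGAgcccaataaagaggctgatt
Trpm1, plus strand, chr7:64153673-64153719: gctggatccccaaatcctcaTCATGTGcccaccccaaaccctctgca

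The same letters thus preceded genes that fell (Ctsd, Sgsh, Gla, Slc36a1 and Atp6v0b) and one that rose (Atp6v1a). The E-box was found in 8 of 18 hydrolase genes with a listed promoter (44.4%) and 10 of 19 membrane and acidification genes (52.6%). It was found in 2 of 14 autophagy genes (14.3%), and in 8.09% of all genes. Shares above that of all genes were not particular to lysosomal targets. Survival genes had 33.3%, feedback genes 30% and pigment genes 25%. The regulator lists described below had 27.3% (mTORC1 and Rag), 21.4% (Mitf gene), 11.8% (kinases to export) and 33.3% (other E-box factors). None of 13 noradrenergic and 16 reference genes with a listed promoter held it. The CLEAR core was found in 3 of the hydrolase, 8 of the membrane and acidification and 2 of the autophagy genes, beside 1.12% of all genes. The windows of Gusb, Tpp1, Cd63, Bcl2 and Sqstm1 held no E-box. The M-box core was found in 6 of 8 pigment genes (75%), beside 4.31% of all genes. The target lists hold genes that the family is known to bind. Motif shares above those of all genes in the target lists are therefore no support, and nothing is read from them. Why the shares of these or of the regulator lists lay above that of all genes was not tested. A match is a description of the sequence and not evidence of binding in these cells.

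Upstream of the family stand the genes of mTORC1 and Rag control, which decide whether TFEB and TFE3 stay in the cytoplasm. None of the 22 tested was called, beside 6.67% of all tested genes. Their median was 0.05. The 2 with the lowest p were Nprl3, a subunit of the GATOR1 brake on mTORC1, at 0.20 (SE 0.057, adjusted p = 0.111), and Tsc1, the hamartin gene, at 0.19 (SE 0.072, adjusted p = 0.212). For both, every knockdown array lay above every control, and with the replicate block both were called higher (adjusted p = 0.0641 and 0.0957). Those 2 of 22 calls are near the 8.96% of all genes called higher in that fit, and the groups did not overlap for 3 of the 22 beside 25.6% of all tested genes.

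Among 20 kinase, phosphatase, 14-3-3 and export genes 2 rose (beside 2.79% of all tested genes) and none fell. Neither passed with a looser low-value filter. Gsk3b, a kinase that phosphorylates MITF and TFEB, read 11.57, 11.60 and 11.63 in controls and 11.90, 11.82 and 11.86 in knockdown arrays. Its groups did not overlap and the difference was 0.26 (SE 0.057, adjusted p = 0.0578). Ywhag, a 14-3-3 protein of the kind that holds phosphorylated TFEB in the cytoplasm, read 12.01, 11.99 and 11.97 against 12.22, 12.24 and 12.27, also a difference of 0.26 (SE 0.055, adjusted p = 0.0541).

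Of 11 tested factors known to act on the Mitf gene, Pax6 itself was the only one past 10% FDR, which is the knockdown and no finding. Creb1, which binds the CRE, differed by -0.14 (adjusted p = 0.433), Sox10, the neural crest factor, by -0.03 (adjusted p = 0.905) and Lef1, of the WNT pathway, by 0.01 (adjusted p = 0.947); these 3 are named after their values were seen. Pax3, the other paired-box regulator of Mitf, lay below the filter with means of 7.35 and 7.22. Other basic helix-loop-helix leucine zipper factors that read the E-box gave no call among 17 tested, beside 6.67% of all tested genes. Their median was 0.04. Myc differed by 0.15 (adjusted p = 0.223) and Usf2 by 0.13 (adjusted p = 0.288), in both cases with every knockdown array above the controls, as for 4 of the 17 genes beside 25.6% of all tested genes without overlap in either direction.

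**Figure D4:**
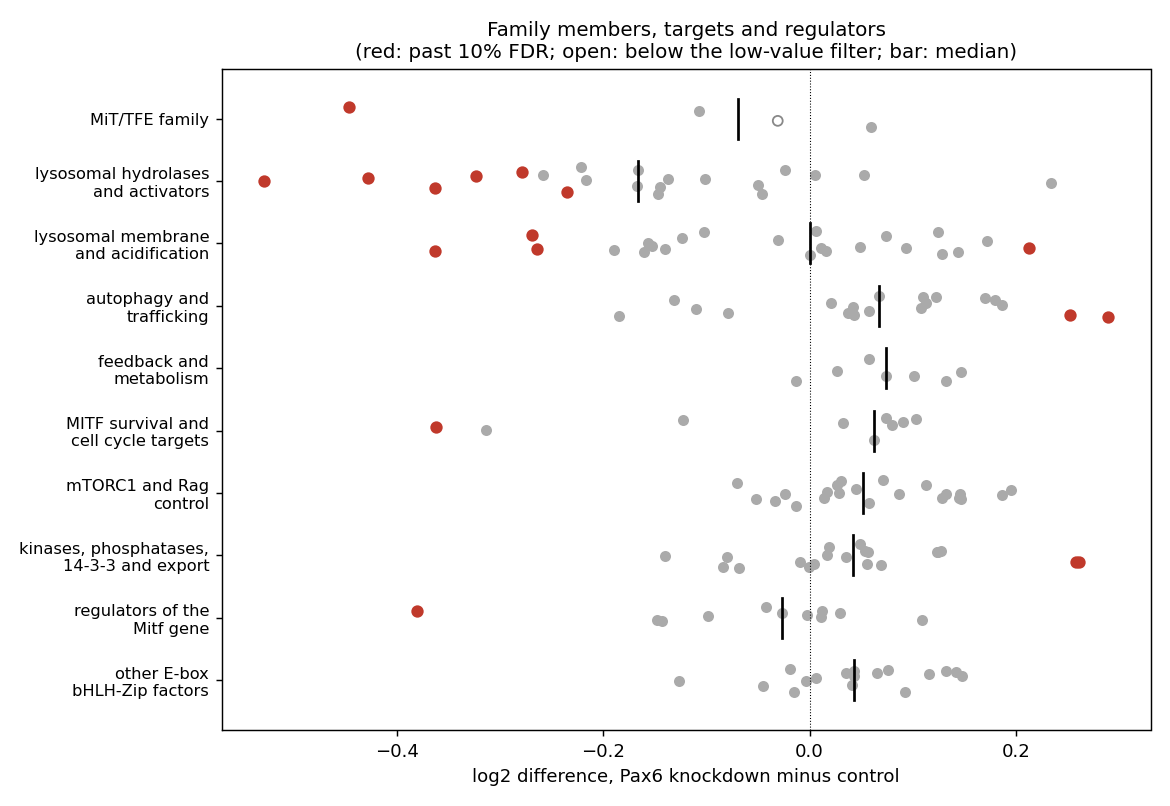
Log2 difference, Pax6 knockdown minus control, for the family and for the tested genes of each target or regulator list, with red points past 10% FDR, an open point for Tfec below the filter and black bars for medians. The hydrolase row lies mostly to the left of 0, with 6 red points, and the autophagy row mostly to the right, with 2.

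These calls rest on few arrays. Leaving out any single array left between 3 and 24 of the 25 called genes named here, Mitf aside, past 10% FDR, with 3 left without control replicate 2 and 3 without knockdown replicate 3. The difference of Mitf was -0.44 without knockdown replicate 3, where it was no longer among the genes past 10% FDR.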

How the data were processed

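Total RNA (200 ng per sample) was hybridised to Affymetrix Mouse Gene 1.0 ST arrays, 1 array for each of 6 cultures, which the labels call biological replicates. A p-value here reflects only how those cultures vary. The authors deposited log2 values for 35556 probe sets, summarised by RMA per the labels' processing notes; no genome build is given in the sources used here. Of the probe sets 21789 name 1 gene, 1621 several and 12146 none. Each gene was represented by its single-symbol probe set with the highest mean. A gene was tested where 3 or more of the 6 arrays read above their own overall median, the low-value filter. The test was limma 3.58.1 (R 4.3.3; lmFit, eBayes), with Benjamini-Hochberg adjustment over all 11424 and 10% FDR. The number of arrays limits precision. No 2 arrays were duplicates. The script was tested on simulated data.

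Members and lists were chosen with earlier results of these data known. Named genes are the 4 members, Pax6, the 5 nearest to Mitf, up to 4 called genes per list (or the 2 with the lowest p where none was called) and filtered-in pigment genes. Same-numbered arrays deviated together from their group means (r = 0.57, 0.32 and 0.23), so replicate number was also fitted as a block. For replicate 3 the match was weak, since control 3 with knockdown 2 gave r = 0.18. The labels do not say what the numbers share. Markers of osteoclasts (2 of 9 above the filter), macrophages (1 of 9) and fibroblasts (3 of 7) were read too. Alternatives covered the filter, probe set choice, centring, quantile normalization, array weights, a robust intensity trend and leaving out each array.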

Additional observations from a re-analysis of the deposited data

How the results depend on the processing

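The difference of Mitf kept its direction in all alternatives, from -0.49 to -0.40 when single arrays were left out. As the family was chosen on this difference, that is no independent support. The mean of both Mitf probe sets gave -0.074 and fell below the low-value filter. Tfeb stayed negative (-0.16 to -0.04 with single arrays left out). Tfe3 turned to -0.00093 without knockdown replicate 3 (highest 0.12) and Tfec to 0.0094 without control replicate 1 (lowest -0.08). Counts of calls moved more. With the replicate block, no low-value filter, a 25th percentile filter, a second quantile normalization and array weights, 1024, 68, 130, 601 and 2639 genes were higher in place of 319, and 1018, 177, 259, 782 and 1600 lower in place of 443. Target genes higher (3) became 8 with the block, 0 with no or the 25th percentile filter and 18 with array weights. Target genes lower (10) became 17 with the block, 4 with either looser filter, 26 with array weights and 16 with the robust trend. Hydrolases lower (6) became 10, 3, 3 and 13 with the block, the looser filters and the weights. Regulators and E-box factors higher (2) became 4, 0, 0 and 17 in those settings, and lower (1) became 5 with weights and 2 with the robust trend. Leaving out single arrays gave 7 to 818 genes higher and 43 to 465 lower, 0 to 4 target genes higher and 0 to 9 lower, 0 to 6 hydrolases lower, and 0 to 3 regulators higher and 0 to 1 lower. Of the 25 called genes named in the text, Mitf aside, 25 stayed called with the replicate block, 12 with no low-value filter and 14 with the 25th percentile filter. Looser filters add genes to the adjustment, and leaving out an array removes a sample; the cause of the other shifts was not tested. Signal near background limits what can be said of Tfec, the second Mitf probe set and the pigment genes.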
